A study of Drosophila melanogaster with 4 samples.

Results

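The bantam locus (ban, listed as mir-ban in RefSeq) was examined for Myb binding in a stretch of 60 kb on the left arm of chromosome 3, chr3L:605000-665000 in the dm3 (release 5) assembly, which holds the microRNA hairpin and its neighbors. Its probes were taken by position, and the locus itself was picked with earlier results of these data known. It holds 787 genome probes, out of 316903 on arm 3L, 935600 on the array design that carries this arm and 1870562 on both array designs. The assay was ChIP-chip. Immunoprecipitated DNA and input DNA were labeled with different dyes and hybridized together to a tiling array. The chromatin came from pooled wing imaginal discs, the precursors of the adult wing, of male 3rd instar larvae of the yw67 strain, the control genotype of the study. There was only this genotype, with no mutant, treatment or second tissue, so each value compares Myb immunoprecipitate (Cy5) with input (Cy3) and not 1 condition with another. There were 2 biological replicates (n = 2), and the dyes were never exchanged. Each replicate was scanned on days of its own, so replicate and scan cannot be told apart. Arrays of genomic DNA hold no expression markers, so the tissue on the labels could not be checked.

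bantam is a microRNA that promotes growth and blocks cell death during the development of imaginal discs. The Hippo pathway restrains it through Yorkie, a transcriptional coactivator, and its targets include the death gene hid. The mature microRNA is cut from a long primary transcript, annotated as the noncoding RNA CR43334 (pri-bantam). Myb, the only Myb family protein of the fly, is a DNA-binding subunit of the Myb-MuvB complex, which can activate or repress its targets and is known for its role at cell cycle genes.

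On average, the stretch was enriched for Myb. The log2 ratio of immunoprecipitate over input, with the median probe of each array set to 0, averaged 0.53 in replicate 1 and 0.82 in replicate 2 over the 781 probes measured in both replicates (mean 0.68 ± 0.21, SD). This is a 1.60-fold ratio on the linear scale, against 1.05-fold for all of arm 3L, where the means were 0.037 and 0.091. The window was thus above the arm in both replicates, by more than the spread between them. Replicate 2 exceeded replicate 1 by 0.29 in the window and by 0.053 on the arm, so the replicates stood further apart here than over the whole arm. Of the probes, 607 were above 0 in both replicates (77.7%, against 38.2% on arm 3L) and 58 were below 0 in both. On arm 3L, 114070 of 315372 measured probes were below 0 in both. The probes of the window start a median of 66 bp apart, with no gap over 180 bp. In replicates 1 and 2, 1 and 5 of them were left out as outlier spots, and 19 and 28 were not well above background. Across the measured probes, which are not independent replicates, the values of the 2 arrays correlated with Pearson's r = 0.636 and Spearman's rho = 0.637.

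Arm 3L was divided into consecutive windows of 60 kb in register with the bantam window, and 409 of them had at least 300 measured probes. Their mean log2 ratios ran from −0.494 to 0.824, with a median of 0.0814. The bantam window ranked 4 in replicate 1, 2 in replicate 2 and 2 by the mean of both. As a rank, this places the locus near the top of the arm in each array, but it comes with no test.

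**Figure D1:**
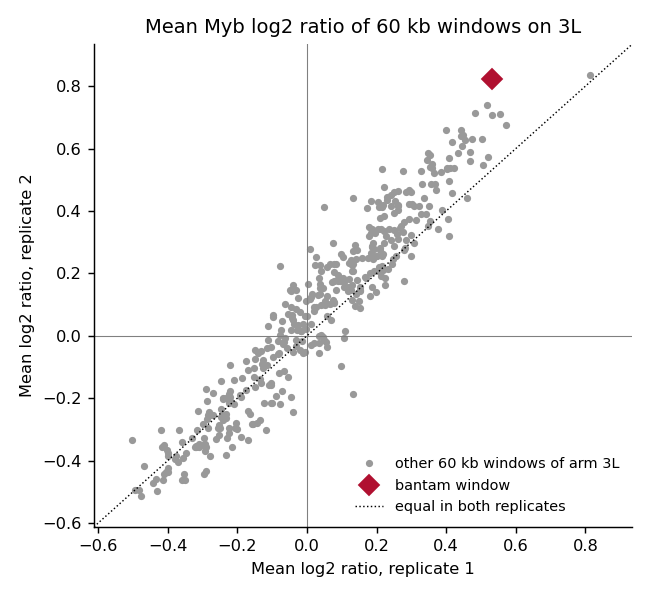
Mean log2 ratio of Myb immunoprecipitate over input in replicate 1 (x axis) and replicate 2 (y axis) for each of the 409 windows of 60 kb on arm 3L, with the bantam window as a diamond. The bantam window lies at 0.53 and 0.82, above the line of equal values and close to the top of both axes.

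At the level of single probes, tested against a log2 ratio of 0 with limma and Benjamini-Hochberg adjustment over all probes, 338 of the 781 probes were enriched at an adjusted p below 0.05 (43.3%) and 15 were depleted (1.92%). Over both array designs 9.77% of probes were enriched and 3.86% were depleted. At an unadjusted p below 0.05, 504 probes of the window passed in either direction, but the share of all probes at that threshold was not computed. Bins of 1 kb, each holding 12 to 14 probes here, were tested in the same way. Of the 60 bins, 48 were enriched (80.0%), against 23.5% of bins on all chromosome arms and 22.7% on arm 3L. None was depleted by limma (10.9% on all arms and 15.4% on 3L), and 53 passed at an unadjusted p below 0.05, all of them above 0. In 57 bins the log2 ratio was above 0 in both replicates, in 3 the replicates had opposite signs, and in 46 replicate 2 was the higher. The unadjusted count and these counts of sign were not taken over the bins of all arms.

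Genes were placed from the RefSeq list of the Release 6 assembly, whose positions match those of dm3 on this stretch. All 43 transcripts of the study's array annotation that could be looked up in the first 1.5 Mb of 3L fell inside the Release 6 span of their gene, against 20 of 254 from 6 Mb on, where the assemblies part. From left to right the window holds Reg-2, the noncoding RNAs CR44513, CR42719, CR43337 and CR43334 (pri-bantam), CR43423 and mir-ban inside the span of pri-bantam, and further right CG3402, MED30 and Rev1. MED30 is a subunit of the Mediator complex, and Rev1 is a DNA polymerase of translesion synthesis.

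The enrichment was highest to the left of pri-bantam. There, in the 23 bins from 605001 to 628000, the log2 ratio averaged 0.66 in replicate 1 and 0.98 in replicate 2 (mean 0.82 ± 0.22, SD), and 22 bins were enriched. Over the 16 bins of pri-bantam it averaged 0.48 and 0.76 (0.62 ± 0.20), and 12 bins were enriched. Over the 21 bins to the right of pri-bantam it averaged 0.44 and 0.70 (0.57 ± 0.19), and 14 bins were enriched. The bins left of pri-bantam had the highest average in each replicate. They also had the lowest input intensity, with a median of 397 and 271 in replicates 1 and 2, against 781 and 639 over pri-bantam and 710 and 529 to its right, and the part of input in this order was not tested. The SDs of these averages come from 2 arrays that all the stretches share. Replicate 2 was the higher in each stretch, so the SDs show that offset and not the error of a step between stretches. The order of the stretches was the same in both replicates, but it was not tested.

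**Figure D2:**
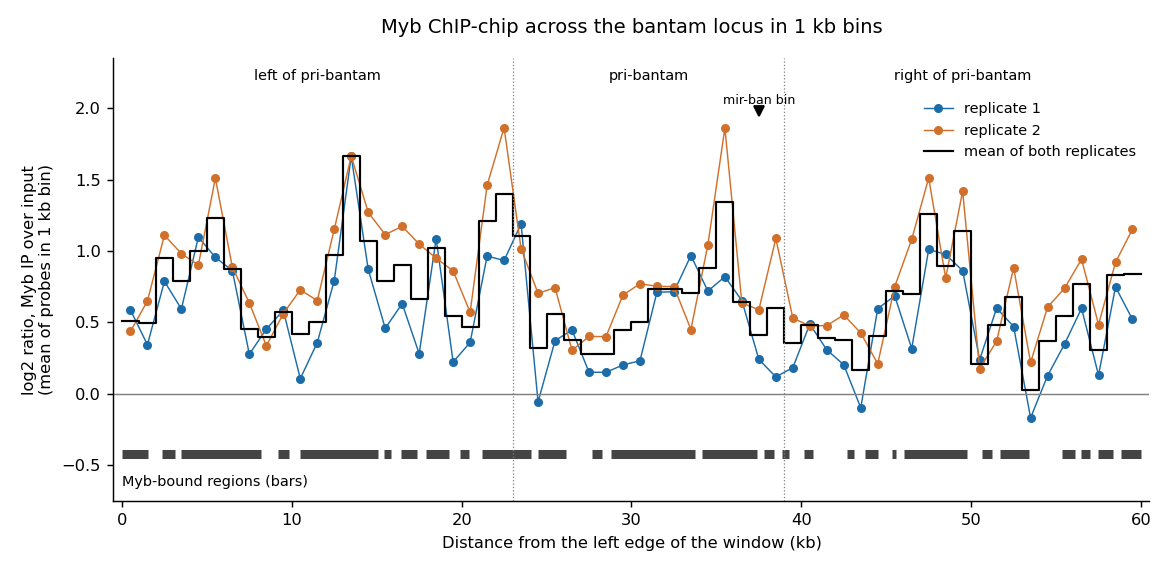
Mean log2 ratio of the probes in each 1 kb bin (y axis) by distance from the left edge of the window in kb (x axis), for each replicate (points) and their mean (black steps). Dotted lines part the gene stretches, bars under 0 mark the 27 Myb-bound regions, the peaks at 1.66 and 1.40 stand left of pri-bantam, and the peak at 1.34 stands inside it, left of the mir-ban bin.

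The highest bin, 618001-619000, lies between CR42719 and CR43337 and read 1.66 in replicate 1 and 1.67 in replicate 2 (adjusted p = 4.0e-07, limma), a 3.17-fold ratio. Its replicates were closer than those of any other bin. The bin 627001-628000, next to the left end of pri-bantam, followed with 0.93 and 1.86 (mean 1.40 ± 0.66, adjusted p = 5.7e-06, limma). The bin 640001-641000, inside pri-bantam, read 0.82 and 1.86 (mean 1.34 ± 0.74, adjusted p = 1.2e-05, limma). In the latter 2, replicate 2 was far above replicate 1, so the arrays gave these bins no common height.

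The lowest bin was 658001-659000, just right of Rev1, with −0.17 and 0.22 (mean 0.026 ± 0.27, adjusted p = 0.91, limma). In 655001-656000, within Rev1, the values were 0.24 and 0.18 (0.21 ± 0.044, adjusted p = 0.30, limma). At these points the signal was close to the median of the array.

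Myb-bound regions were called on the mean of both replicates with a neighborhood rule, by which a probe is significant when its p-value averaged with that of a neighbor is below 0.05, and a region needs 4 or more significant probes with gaps of no more than 300 bp. The p-values come from a normal distribution set by the low side of the array, so they measure height over the array's background and not the spread between replicates. There were 27 such regions in the window, which covered 41067 bp of it (68.4%), whereas regions covered 19.0% of arm 3L. They held 552 of the 787 probes (70.1%), against 19.9% of probes on all chromosome arms. The regions were between 252 and 4940 bp long, with a median of 784 bp against 778 bp on 3L, and their mean log2 ratios ran from 0.51 to 1.39 with a median of 0.82 against 0.74 on 3L. So the window differed from the arm mainly in the number of regions, 45.0 per 100 kb against 14.5, and little in the length or height of the typical region. Of the 27, 9 ranked in the highest 10% of the 3564 regions of 3L by mean log2 ratio. All 27 had a mean above 0 in both replicates, and replicate 2 was the higher in 21. The regions were called where the mean of these replicates was high, so the call itself favored values above 0 in both. Regions that cross an edge of the window are given by their probes inside it.

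The replicates alone did not call all of them. The same rule found 24 of the 27 in replicate 2 alone and 14 in replicate 1 alone, all 14 of them also in replicate 2. The other 3 were found only with the mean of both. With the mean p held below 0.001 in place of 0.05, 12 regions were called, lying within 9 of the 27.

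The 5 highest regions, picked by the mean of both replicates, all had means above 1 in each. The first, chr3L:607373-608145, is in a stretch with no listed gene between Reg-2 and CR44513, and its 10 probes averaged 1.28 and 1.50 (mean 1.39 ± 0.15, SD), with 9 of them enriched. It ranked 25 among the regions of 3L. The next 2 are neighbors at CR43337, a noncoding RNA of unknown role. In chr3L:621436-622355, 13 probes averaged 1.03 and 1.66 (1.35 ± 0.45), and in chr3L:620438-620819, 6 probes averaged 1.05 and 1.61 (1.33 ± 0.40) and all 6 were enriched. The latter rests on dim spots, with median input intensities of 82.3 and 39.9. The region in the fifth place, chr3L:647688-648073, lies to the right of pri-bantam, and its 6 probes averaged 1.05 and 1.25 (1.15 ± 0.14).

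The fourth, chr3L:626220-629100, spans the left end of pri-bantam. It is 2881 bp long, and its 38 probes averaged 1.03 and 1.54 (mean 1.29 ± 0.36), which ranked 52 among the regions of 3L. Of these probes, 36 were above 0 in both replicates and 19 were above 1 in both, and 29 were enriched. The probe with the highest mean of the whole window, at 628493-628542, is in this region with 2.72 and 2.20 (mean 2.46, adjusted p = 0.00076, limma), a 5.49-fold ratio. A second probe among the 5 highest, at 627098-627147, is here too, but its values of 1.05 and 3.78 (mean 2.42, adjusted p = 0.0069, limma) differ by more than the height of most regions. Within the region, 1 probe at 628359-628408 was depleted, with −1.84 and −0.61, between neighbors that were above 0 in both replicates.

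**Figure D3:**
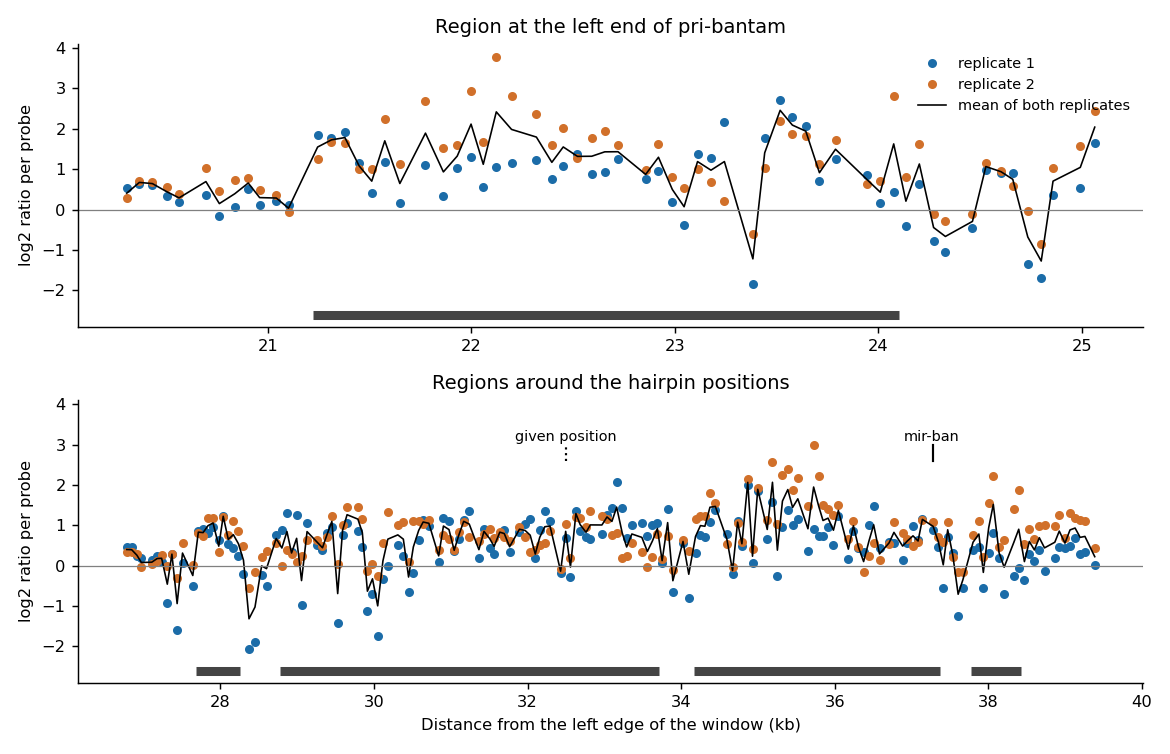
Log2 ratio of each probe (y axis) in replicate 1 and replicate 2 (points) and their mean (line) by distance from the left edge of the window in kb (x axis), for the region at the left end of pri-bantam (top) and the 4 regions around the hairpin positions (bottom). Bars mark the Myb-bound regions, and the bottom panel has its highest probes at about 35 kb, between the given position and mir-ban.

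The given hairpin position and mir-ban of the Release 6 list each lay in a Myb-bound region of the mean of both replicates. The locus was laid out around a given hairpin position of 637500, but on the Release 6 list mir-ban lies several kb further right, past CR43423 and near the right end of pri-bantam, where dm3 and Release 6 share positions. Both are inside the window, and the values at mir-ban are those of the annotated hairpin. Within 500 bp of 637500, 13 probes averaged 0.71 in replicate 1 and 0.75 in replicate 2 (mean 0.73 ± 0.026, SD), and 8 of them were enriched. Within 500 bp of mir-ban on the list, 15 probes averaged 0.34 and 0.63 (0.48 ± 0.21), and 4 were enriched. The 1 probe that overlaps mir-ban, at 642257-642306, read 0.88 and 1.07 (mean 0.97, adjusted p = 0.018, limma). The averages at both positions were above 0 in each replicate. At 637500 the mean was near that of the window, whereas within 500 bp of mir-ban it was below the window in both replicates. The bin that holds mir-ban ranked 46 of 60. Within 250 bp of mir-ban, however, 9 probes averaged 0.58 and 0.73 (mean 0.65), above the window in replicate 1 and below it in replicate 2. Within 1000 bp of mir-ban, 27 probes averaged 0.38 and 0.67, below the window in both. The region calls at 637500 and at the mir-ban probe were looked up in 6 alternatives. These were each replicate alone, a mean p below 0.01 or 0.001, normexp background correction and centring on the mode. Among them, the call at the mir-ban probe was lost in replicate 1 alone and with the mean p below 0.01 or 0.001. The call at 637500 was lost only with the mean p below 0.001.

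The given position falls in chr3L:633776-638715, the longest region of the window at 4940 bp, which ranked 98 by length among the regions of 3L but 2683 by height. Its 66 probes averaged 0.60 and 0.67 (mean 0.64 ± 0.049), an average in which differences between the arrays cancelled. The bin 635001-636000 read 0.23 and 0.77, for example, and the bin 638001-639000 read 0.97 and 0.45. The region to its left, chr3L:632688-633259, held 9 probes that averaged 0.73 and 0.91 (0.82 ± 0.12). To its right, chr3L:639163-642374 holds mir-ban near its right end, and its 42 probes averaged 0.78 and 1.18 (0.98 ± 0.28), with 24 enriched. It includes the bin 640001-641000, so the highest signal inside pri-bantam stood left of mir-ban and not on it. Beyond mir-ban, the 9 probes of chr3L:642777-643421 averaged 0.06 and 1.14 (0.60 ± 0.76) and 1 was enriched. This was the region on which the replicates differed most, and replicate 1 alone did not call it.

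A broad region right of pri-bantam covered CG3402 and MED30 and reached into Rev1. In chr3L:651067-654780, 3714 bp long, 48 probes averaged 0.86 and 1.28 (mean 1.07 ± 0.30), 33 of them enriched. With the mean p held below 0.001, 2 pieces of it that cover 1164 bp were called. Its highest probe, at 652581-652630, was also among the 5 highest of the window, with 1.48 and 3.19 (mean 2.33, adjusted p = 0.0022, limma). The other 2 of those 5 lie left of pri-bantam. The probe at 622248-622297 read 1.73 and 3.17 (mean 2.45, adjusted p = 0.0014, limma) and the probe at 618858-618907 read 2.09 and 2.55 (mean 2.32, adjusted p = 0.00082, limma). All 5, picked by the mean of both replicates, were above 1 in each, and in 4 of the 5 replicate 2 was the higher.

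The 15 depleted probes were of a different kind. In 8 of them neither replicate was well above background, with an input intensity in replicate 1 under 20, so 7 remained where both arrays measured DNA. Of those, 4 were among the brightest spots of the window, with an input intensity above 4000 in replicate 1, up to 30349 at 619834-619883, where the log2 ratios were −2.14 and −0.36. All 15 were lower in replicate 1 than in replicate 2. Of the 15, 7 were inside Myb-bound regions.

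The input intensity of the locus was low, and it moves with the result. The median input was 612 and 469 in the window (replicates 1 and 2), against 1113 and 973 on arm 3L, whereas the median of the immunoprecipitate was 986 and 878 against 1234 and 1063. So both channels were dimmer than on the arm, and the input more so. In the lowest 10% of design 1 by input lay 18.8% and 20.9% of the window's probes. Enriched probes of the window had a median input of 435 and 288, and probes that did not pass the test of 875 and 682. Input is the denominator of the ratio, so the 2 are not independent. The ratio did not always rise as input fell, however. In replicate 1 the lowest 10% averaged 0.13 and the next 10% averaged 0.25. In replicate 2 the lowest 10% averaged 0.40 and the next 10% averaged 0.32.

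**Figure D4:**
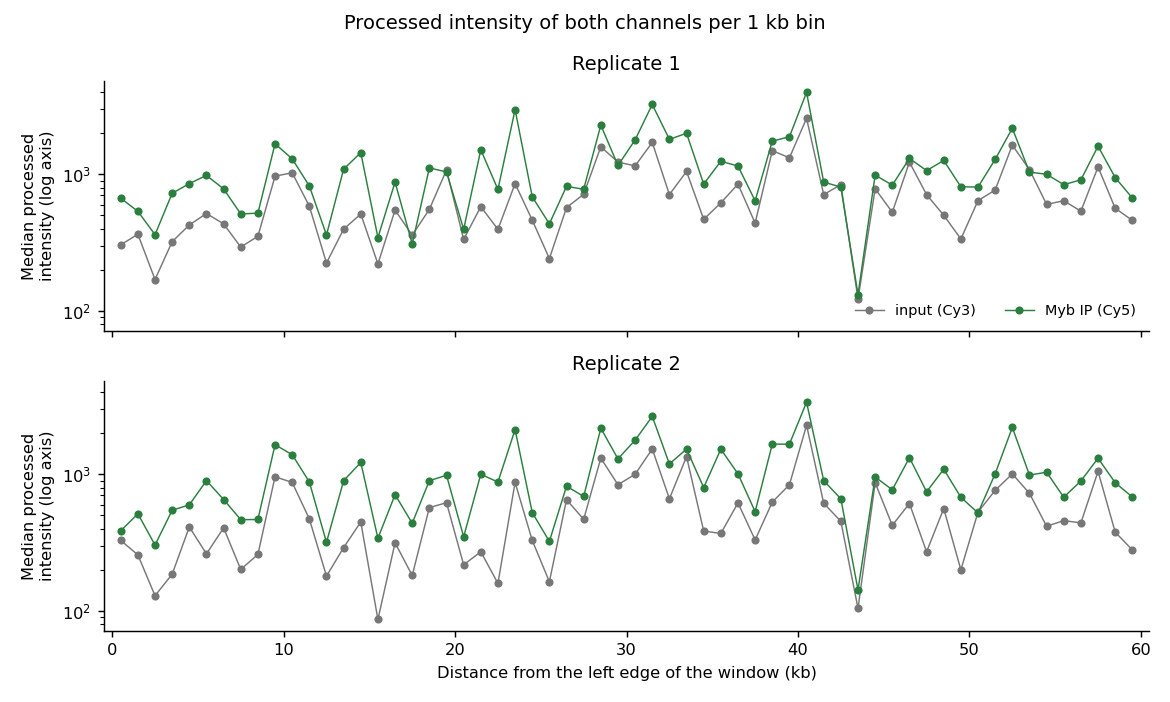
Median processed intensity of input (Cy3) and Myb immunoprecipitate (Cy5) per 1 kb bin on a log axis, by distance from the left edge of the window in kb, for replicate 1 (top) and replicate 2 (bottom). The immunoprecipitate is above the input in 55 of 60 bins of replicate 1 and in 59 of 60 bins of replicate 2.

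Probes were therefore also set beside probes of like input. In each decile of design 1 by input intensity, the mean log2 ratio of the window was above that of all design 1 probes in replicate 2, from 1.16 against 0.40 in the lowest decile to 0.22 against −0.18 in the highest. In replicate 1 this held in the lowest 9 deciles, from 0.80 against 0.13 in the lowest to −0.14 against −0.22 in the ninth, but in the highest the 39 probes of the window averaged −0.66 against −0.23. With each array centred within 20 classes of input intensity instead of on its median, an alternative added with the results known, the window averaged 0.56, and 293 probes, 42 bins and 23 regions were called. The part of input intensity in the result was not tested beyond these values.

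**Figure D5:**
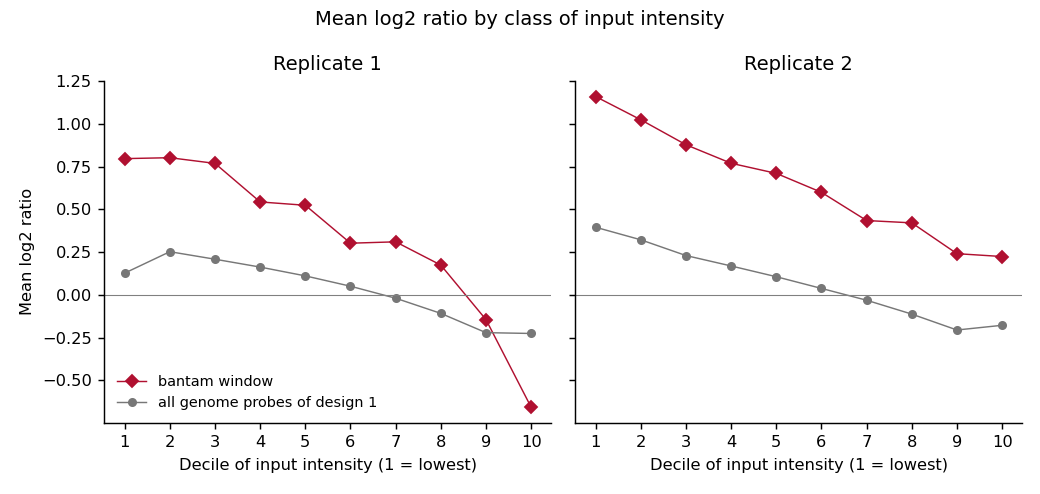
Mean log2 ratio (y axis) in each decile of input intensity of design 1 (x axis, 1 is the lowest), for the probes of the bantam window (diamonds) and all genome probes of design 1 (circles), in each replicate. The window is above design 1 in every decile of replicate 2 and in 9 of 10 deciles of replicate 1.

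The enrichment did not stop at the edges of the window. In stretches of 10 kb, the mean log2 ratio inside the window ran from 0.50 in the last, 655001-665000, to 0.85 in 615001-625000, the stretch with CR42719 and CR43337. The 10 kb to the left of the window averaged 0.54 in replicate 1 and 0.63 in replicate 2 (mean 0.58 ± 0.066, SD), and the 10 kb to the right averaged 0.46 and 0.62 (0.54 ± 0.12). The ratio fell below 0 in both replicates in 575001-585000, where it averaged −0.15 and −0.11. Further left, in 565001-575000, it was back at 0.40 and 0.52. To the right it was still at 0.19 and 0.37 in 695001-705000. The windows of 60 kb on either side averaged 0.28 and 0.36 on the left and 0.42 and 0.46 on the right, below the bantam window in both replicates. The edges of the window were set by position and are not edges of the binding.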

How the data were processed

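The authors deposited 1 scanner output per array (4 arrays, 2 replicates by 2 designs), in which the processed intensity of each channel had been background-subtracted, spatially detrended and dye-normalized by Agilent Feature Extraction. The deposited log10 ratio was used only as a check, and the ratio computed here was the same within 0.001 for at least 99.5% of spots. A joint table of log2 values for both replicates, which the authors deposited with no statement of its normalization, served as an alternative once centred, and correlated with the computed ratios of the same replicate at 0.983 and 0.982.

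The log2 of processed Cy5 over processed Cy3 intensity was computed per spot without further background correction. Control and outlier spots were not used, repeated spots of a probe were averaged, and the median of the genome probes of an array was set to 0. Probes of both designs, and means over 1 kb bins of the 6 chromosome arms with at least 5 probes, were tested against 0 in limma version 3.58.1 (R version 4.3.3), two-sided, with Benjamini-Hochberg adjustment over all probes or bins and a threshold of 0.05. Myb-bound regions follow the neighborhood model named in the study's methods, rewritten here (Python version 3.11.15) with its thresholds and run on the average of the replicates rather than on each array, so they are not the study's own peaks. Neighbors were at most 1000 bp apart. The normal null was fitted on all genome probes of a design (mode −0.165 and SD 0.441 on design 1), with the mode taken from a histogram with bins of 0.01 smoothed over 21 bins. Both steps were run on simulated data, with planted changes above the window mean and noise independent between probes. Those runs do not cover weaker signal or probes that depend on each other. Alternatives changed the centring, the background correction, the table, the treatment of outlier, dim and saturated spots, the bin size, the region thresholds and the hairpin interval, and left out each replicate.

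The window, the gene lists and the rule for named items were chosen with earlier results of these data known. Named are the hairpin, the 5 highest regions and those beside the hairpin, the 3 highest and 3 lowest bins (1 low bin, at a gene of the window, is not reported here), and the 5 highest probes; other regions and probes were named after their values were seen. Lists of Hippo pathway genes, Yorkie targets, bantam targets and microRNA machinery were not analysed here, since their promoters could not be placed on the arrays without probe sequences. Precision is limited by the 2 arrays.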

Additional observations from a re-analysis of the deposited data

How the results depend on the processing

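The window mean kept its sign and moved by less than 1 SD under the alternatives run, from 0.54 with normexp background correction to 0.77 with each array centred on its mode, and was 0.53 or 0.82 in 1 replicate alone. That SD, 0.21, is the spread of the 2 replicate means, so leaving out either replicate could not move the mean by as much. The number of enriched probes ran from 293 to 402 and that of enriched 1 kb bins from 42 to 55. With other bin sizes the counts changed with the number of bins tested, to 82 of 120 bins of 500 bp and 27 of 30 bins of 2 kb. The number of Myb-bound regions ran from 21 to 35, except for 12 with the mean p held below 0.001, and was 21 with either replicate alone. These equal counts do not mean equal cover, since replicate 1 alone found 14 of the 27 regions and replicate 2 alone found 24. For example, replicate 2 alone called 607373-613228 as 1 region, where replicate 1 alone called 607373-608080, 608997-610925 and 611400-611845. The share of the window covered in each replicate was not computed. The mean within 500 bp of the given hairpin position stayed above 0, but its replicates were so close (0.71 and 0.75) that small shifts exceeded their SD. It was 0.83 centred on the mode, 0.69 with normexp correction, 0.65 centred within classes of input intensity, 0.69 within 250 bp, 0.78 within 1000 bp, and 0.48 at mir-ban of the Release 6 list. The input classes and the Release 6 position were added after the data were seen. The cause of these shifts was not tested. No paired analysis was possible because no groups of samples were compared, and the replicate numbers that both array designs share mark the same chromatin on different probes.

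With 2 replicates a limma call rests on a spread borrowed from all probes. The dyes were never exchanged, so a bias of dye or labeling cannot be told apart from enrichment. Sheared fragments are longer than the distance between probes, so neighboring probes are not independent.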
